A study of Mus musculus with 23 samples.

Results

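Late differentiation of control C2C12 cells was examined as the step from day 3 to day 6 in low-serum medium. The step set the 3 control libraries harvested on day 6 against the 3 control libraries harvested on day 3, which are 6 of the 23 libraries analysed. They were chosen by the genotype and day in their names, and no measured value entered the choice. C2C12 is an established mouse myoblast line: its cells divide in serum-rich medium and, when serum is lowered, leave the cell cycle and fuse into multinucleated myotubes.

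The study compared control cells (genotype label WT) with cells labelled Runx1KO (here KO). Day 0 cells were in growth medium (20% FBS) and all later cells in differentiation medium (horse serum at 2%). The titles name days 1, 3 and 6, although 5 days is the last time in the series text, and the titles were followed. The groups used here are WT day 3 and WT day 6, with WT day 0, WT day 1, KO day 3 and KO day 6 beside them, each of 3 libraries except WT day 0, of which 2 were analysed. All come from this single cell line, how the KO cells were derived is not given in the sources used here, and nothing states that replicates were separate cultures, so p-values measure only the spread between these libraries. The medium is the same on both days of the step, so no treatment changes within it. RNA was poly(A)-selected bulk RNA, in which fewer cells of a type and less RNA per cell cannot be told apart.

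Skeletal muscle builds its contractile apparatus in stages. Embryonic and cardiac isoforms of myosin and actin are used first and are later exchanged for adult fast or slow isoforms, while the calcium release system, the glycogen-burning enzymes and the creatine kinases that buffer ATP are added. Myoblasts that do not fuse can stay as undifferentiated reserve cells beside the myotubes, and cholesterol synthesis genes are driven together by the sterol-sensing factor Srebf2, which is active when cell sterol is low.

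The cells carried the markers of differentiating muscle on both days. Values are CPM, counts per 1000000 counts of a library whose size was scaled by TMM (trimmed mean of M-values), given for libraries 1, 2 and 3 of a day in that order. Myog, the factor that commits myoblasts to differentiate, stood at 173, 158 and 173 CPM on day 3 and at 168, 142 and 137 CPM on day 6. Mymk, the membrane protein that drives fusion, stood at 165, 156 and 168 CPM and then at 199, 167 and 171 CPM, and for both genes the groups overlapped. Neither difference passed the test (log2 fold change, or log2FC, -0.17 with adjusted p = 0.746 and 0.14 with adjusted p = 0.744). The myoblast markers were present beside them: Pax7, the satellite cell factor, at 52.5 and 39.9 CPM on average on days 3 and 6, and Myf5, an early determination factor, at 42.9 and 33.8 CPM. The remaining myotube markers checked, Ckm, Acta1, Ttn, Mylpf, Tnnc2, Myh3 and Atp2a1, and the myoblast markers Myod1, Cdh15 and Des were also present on both days.

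Depth hardly differed between the 6 libraries, whose total estimated counts lay between 22277369 and 22510203. The most abundant gene, Fn1, held 1.41% to 2.32% of the counts, and 3 counts, used here as the floor, correspond to 0.126 to 0.133 CPM. The day 6 libraries differed more among themselves than the day 3 libraries did: chi-square per degree of freedom between replicates was 10.4 to 29.0 on day 6 and 3.19 to 5.86 on day 3, and the median SD of log2 CPM over 10400 genes was 0.12 against 0.07. In a principal component analysis of the 6 libraries the first component (41.0% of the variance) separated the days and the second (20.6%) separated day 6 libraries 2 and 3. Across 13265 genes, the deviation of day 6 library 2 from its group mean correlated with log10 transcript length at r = -0.30, and that of library 3 at r = 0.33, whereas the log2FC of the step itself did so at 0.02. These correlations are across genes, which are not independent replicates, and the part of transcript length in any result was not tested.

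Between WT day 3 and WT day 6, 1389 of 14187 tested genes passed edgeR's quasi-likelihood test at an adjusted p (Benjamini-Hochberg) under 0.05. That is 9.79% of the genes tested, with 691 higher on day 6 (4.87%) and 698 lower (4.92%). Of the called genes 649 moved by less than 0.5 on the log2 scale. The median log2FC of all tested genes was -0.01, with quartiles at -0.14 and 0.17. Large changes were mainly increases, since 207 genes rose by at least 1 on the log2 scale (1.46% of those tested) and 26 fell by as much (0.183%). In all, 3183 genes had an unadjusted p under 0.05. The number of calls depended on single libraries. Leaving out KO day 1 library 2, which only enters the shared estimate of spread, gave 2306 calls, and leaving out 1 library of the step gave between 756 (without WT day 6 library 1) and 1587 (without WT day 6 library 3). The count was 811 without WT day 3 library 1 and 774 without WT day 3 library 2. No gene called both ways changed direction under any of these fits.

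**Figure D1:**
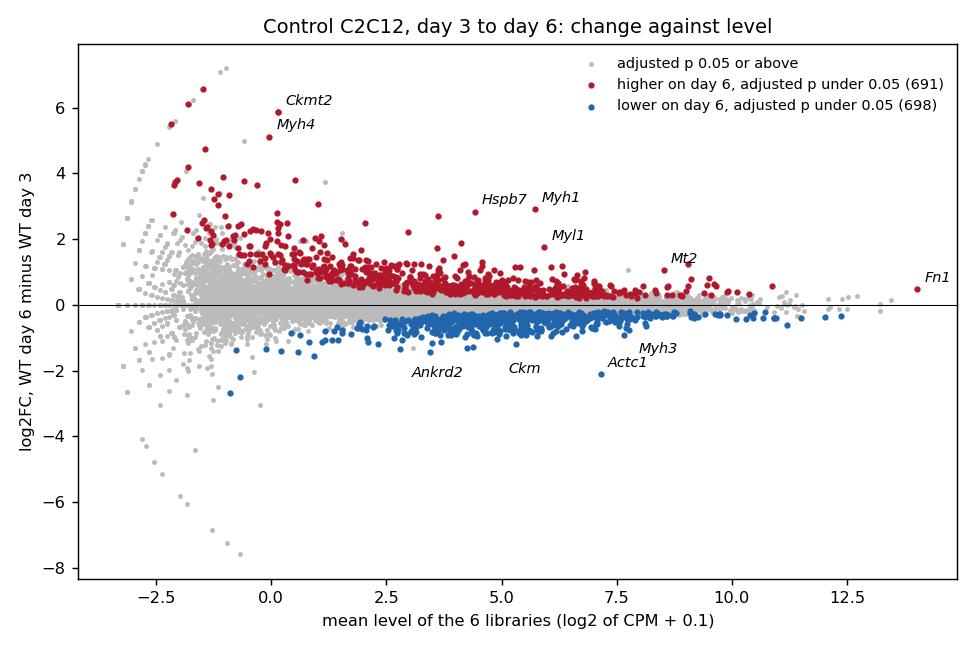
Log2FC of WT day 6 minus WT day 3 (vertical axis) against mean level over the 6 libraries (log2 of CPM + 0.1, horizontal axis) for all 14187 tested genes. The 691 genes called higher (red) reach far above the 698 called lower (blue), and most large increases sit at low levels.

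Most cell cycle and cholesterol synthesis genes fell over the step, while smaller shares of the contractile, calcium-handling and lysosomal genes rose. Isoforms of early muscle went both ways: the embryonic myosin Myh3 and the cardiac actin Actc1 fell, and the embryonic light chain Myl4 rose. Of 40 gene lists, cell cycle (27 of 30 members lower) and cholesterol synthesis (21 of 24 lower) held the largest shares of members called in 1 direction, beside 4.92% lower among all genes tested. Lysosome and autophagy (11 of 26 higher), phosphagen and myoglobin genes (7 of 14 higher), atrophy and Foxo genes (7 of 18 higher), myosin heavy chains (4 of 11 higher) and excitation-contraction coupling (8 of 26 higher) stood on the other side, beside 4.87% higher among all genes. No member passed in the mitochondrial biogenesis list (22 genes) or among the Runx factors and partners (6 genes), and 1 of 78 respiratory chain subunits did. Of these subunits 4 were higher without WT day 6 library 3, 3 in DESeq2 and 0 without WT day 3 library 1 or 2 or WT day 6 library 1. Beside the 0 calls of the first 2 lists, 2 of the 22 mitochondrial regulators and 0 of the 6 Runx genes had an unadjusted p under 0.05, and DESeq2 called none of either. The counts of every other list in this step stand beside the same 2 shares. The lists were drawn up with earlier results of these data known.

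**Figure D2:**
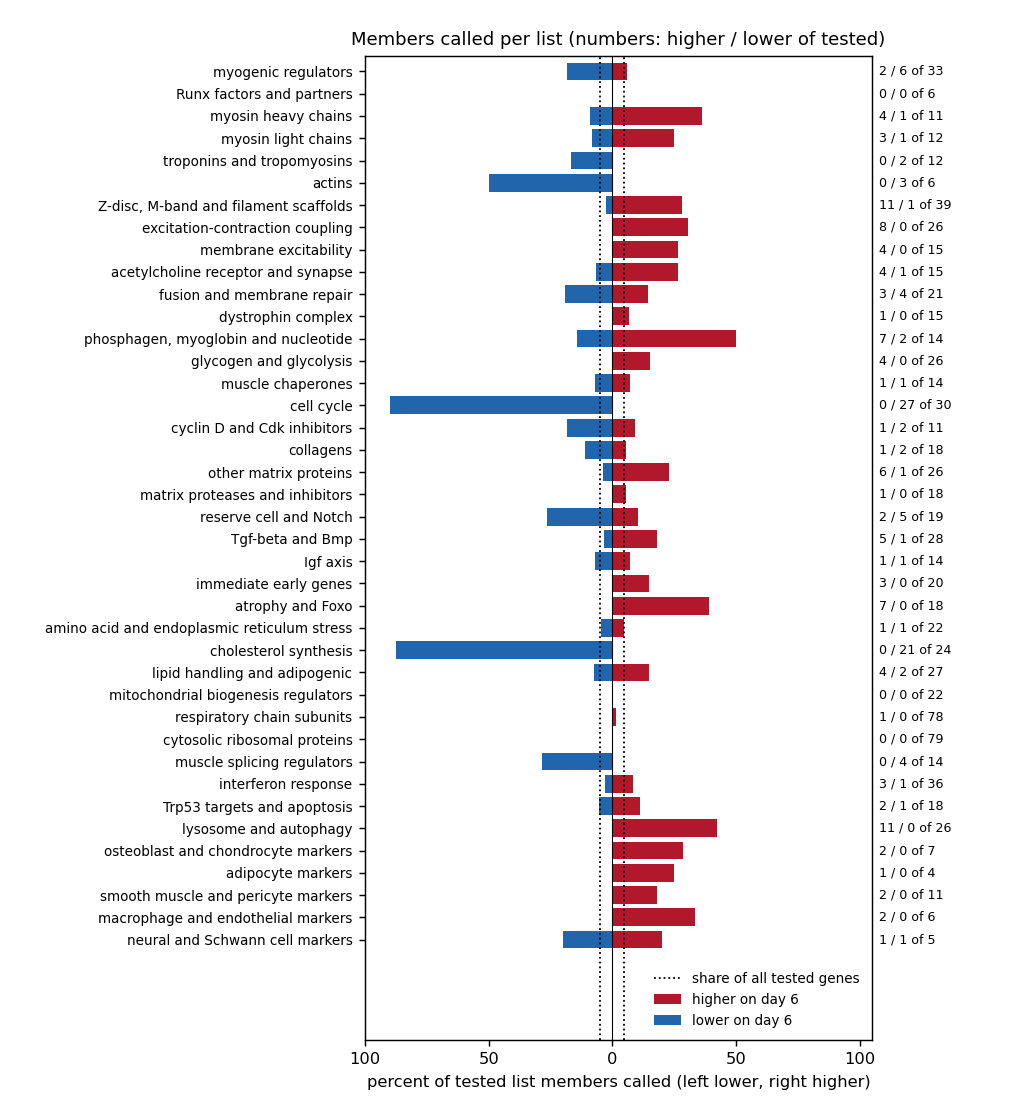
Percent of tested members called higher (right, red) or lower (left, blue) on day 6 in each of the 40 lists, with the counts printed beside the bars and dotted lines at the shares of all tested genes (4.87% higher, 4.92% lower). Cell cycle and cholesterol synthesis reach farthest to the left.

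Promoter sequences are shown for 6 genes that carry the step: the adult myosin that rose, the cardiac actin that fell most, a calcium store gene that rose, a pair of mitotic genes and a sterol gene that fell. Each run is the 250 bases before the gene's annotated start, from RefSeq on GRCm38.p6, read 5′ to 3′ on the gene's strand. Capitals mark, on either strand, TATAAA in Myh1 (plus strand, chr11:67199852-67200101), a CArG box, the element bound by serum response factor, in Actc1 (minus strand, chr2:114052876-114053125), and the E-box CAGCTG in Casq1 (minus strand, chr1:172219896-172220145). In Cdc20 (minus strand, chr4:118437344-118437593) and Cdk1 (minus strand, chr10:69352913-69353162) they mark CCAAT and TTTGAA or TTCGAA, the core of the cell cycle homology region, and in Hmgcs1 (plus strand, chr13:119690101-119690350) CCAAT and TCACNCCAC, a form of the sterol regulatory element. No marked stretch of 1 motif overlaps another in these sequences.
Myh1: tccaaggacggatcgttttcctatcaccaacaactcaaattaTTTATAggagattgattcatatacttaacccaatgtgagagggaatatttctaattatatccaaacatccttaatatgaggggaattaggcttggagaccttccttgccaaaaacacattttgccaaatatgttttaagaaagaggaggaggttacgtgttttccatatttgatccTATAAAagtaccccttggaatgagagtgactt
Actc1: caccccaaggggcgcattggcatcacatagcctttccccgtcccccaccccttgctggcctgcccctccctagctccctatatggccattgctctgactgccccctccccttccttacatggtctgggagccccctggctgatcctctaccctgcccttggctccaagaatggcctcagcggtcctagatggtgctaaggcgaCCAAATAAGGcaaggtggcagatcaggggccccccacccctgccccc
Casq1: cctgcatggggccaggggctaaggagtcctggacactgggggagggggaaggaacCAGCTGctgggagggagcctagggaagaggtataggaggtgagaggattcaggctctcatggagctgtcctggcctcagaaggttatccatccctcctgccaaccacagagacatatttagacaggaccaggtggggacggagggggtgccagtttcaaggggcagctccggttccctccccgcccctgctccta
Cdc20: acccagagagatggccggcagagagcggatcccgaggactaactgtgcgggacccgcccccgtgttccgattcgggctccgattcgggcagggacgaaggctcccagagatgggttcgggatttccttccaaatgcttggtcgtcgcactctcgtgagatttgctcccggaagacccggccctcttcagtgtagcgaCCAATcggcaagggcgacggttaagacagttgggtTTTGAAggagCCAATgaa
Cdk1: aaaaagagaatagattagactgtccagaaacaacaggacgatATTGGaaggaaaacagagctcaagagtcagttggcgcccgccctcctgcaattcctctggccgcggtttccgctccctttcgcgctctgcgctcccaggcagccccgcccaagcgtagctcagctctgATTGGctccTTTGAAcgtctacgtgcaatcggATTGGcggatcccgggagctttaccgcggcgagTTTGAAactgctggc
Hmgcs1: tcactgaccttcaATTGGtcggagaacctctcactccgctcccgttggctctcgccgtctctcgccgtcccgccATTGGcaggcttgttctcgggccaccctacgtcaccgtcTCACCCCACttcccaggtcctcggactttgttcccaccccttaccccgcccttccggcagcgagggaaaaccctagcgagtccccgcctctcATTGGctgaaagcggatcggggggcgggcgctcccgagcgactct

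Promoters, as the 250 bases before the start that RefSeq's promoter table uses, were matched for 10422 of the 14187 tested genes. CCAAT, searched on both strands, stood in 19 of 25 matched cell cycle promoters (76.0%) and in 15 of 16 matched cholesterol promoters (93.8%), beside 36.9% of all matched promoters and 8 of 19 lysosome promoters (42.1%). TTTGAA or TTCGAA stood in 9 of 25 cell cycle promoters (36%) beside 12% of all, and all 9 also held CCAAT, beside 4.87% of all promoters with both. TCACNCCAC stood in 1 of 16 cholesterol promoters, that of Hmgcs1, and in 0.95% of all. CAGCTG stood in 7 of 16 excitation-contraction coupling promoters (43.8%) beside 11.9% of all, TATAAA in 6.53% of all and the CArG box in 1.18% of all. A match describes letters in this window only.

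The myosin heavy chains, the motors of the thick filament, moved in opposite directions. Myh1, the adult fast IIx chain, rose from 11.0, 12 and 14 CPM on day 3 to 100.4, 66.1 and 112 CPM on day 6 (log2FC 2.91, SE 0.19, adjusted p = 1.41e-09), so that every day 6 library stood above every day 3 library. Myh2, the fast IIa chain, rose from 0.261, 0.347 and 0.434 to 2.58, 1.33 and 2.01 CPM (log2FC 2.49, SE 0.36, adjusted p = 8.79e-05). Myh3, the embryonic chain, fell from 240.1, 266 and 288 to 128, 121 and 173 CPM (log2FC -0.91, SE 0.20, adjusted p = 0.00374), again without overlap. No day 6 library of these 3 genes reached into the day 3 range. The fall of Myh3 did not pass with limma on log2(TPM + 0.1). Myh4, the fast IIb chain, had 3 counts over the day 3 libraries and 118 over the day 6 libraries, a ratio of 39.0 with an exact 95% interval of 13.0 to 192 that covers counting error only. It was called (adjusted p = 0.0117), though not without WT day 3 library 2 (log2FC 4.58), without WT day 3 library 3 (4.59) or in DESeq2. Without WT day 3 library 1 the log2FC was 8.27.

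On the length-corrected scale, TPM (transcripts per 1000000 transcripts), Myh3 remained the most abundant of these chains on day 6, at 58.3 ± 26.4 TPM (mean ± SD, n = 3) against 112 ± 9.81 on day 3. Myh1 went from 3.62 ± 0.429 to 28.3 ± 9.27 TPM, and Myh2 reached 0.593 ± 0.199 and Myh4 0.803 ± 0.536 TPM. Of 11 tested heavy chains 4 rose and 1 fell, and their median log2FC was 1.24 beside -0.01 for all genes; without WT day 3 library 2 the number that rose was 2. Several of these chains lie near or under 1 CPM: over those with a mean count of at least 50 the median was 0.05 and 1 rose, and with limma on log2(TPM + 1) the median was 0.28. Myh7, the slow chain, stood at 0.289 ± 0.164 and 0.689 ± 0.300 CPM, and Myh8, the perinatal chain, at 0.420 ± 0.152 and 1.11 ± 0.214 CPM, and neither passed. Myh1, Myh2, Myh3 and Myh4 lie next to one another on chromosome 11 of GRCm38, between 67078273 and 67260447, and their coding sequences are so alike that estimated counts could be split between them in part.

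The skeletal, cardiac and cytoplasmic actins took different courses. Actc1, the cardiac alpha actin that developing skeletal muscle uses, fell from 216, 228 and 248 to 60.6, 45.6 and 55.5 CPM (log2FC -2.10, SE 0.24, adjusted p = 8.15e-06), the largest fall among the genes named here. Acta1, the adult skeletal actin, stood at 1129.7, 1139 and 1246 CPM and then at 1153, 975 and 1001 CPM, overlapping groups with a log2FC of -0.17 (adjusted p = 0.712). In TPM, Acta1 stood at 1566 ± 77.9 and 1409 ± 170.1, and Actc1 at 313 ± 20.9 and 74.3 ± 14.5. The groups of Actc1 lay far apart and those of Acta1 did not. Actg1, a cytoplasmic actin, fell from 5921, 5892 and 5779 to 4544, 4919 and 4538 CPM (log2FC -0.33, SE 0.07, adjusted p = 0.00276). The other cytoplasmic actin, Actb, was called lower (log2FC -0.36), but not without WT day 3 library 1 (-0.35), WT day 3 library 2 (-0.33), WT day 6 library 1 (-0.32) or WT day 6 library 3 (-0.33). Actin coding sequences are also near-identical, so the split between members is uncertain.

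Among thin-filament regulators, 0 of 12 troponins and tropomyosins rose and 2 fell, beside 4.87% higher and 4.92% lower among all genes. The 2 were the cytoskeletal tropomyosin genes Tpm3 (log2FC -0.23), which also encodes the slow-fibre form, and Tpm4 (-0.31). Without WT day 3 library 1 these were -0.21 and -0.27, and without WT day 6 library 1 -0.21 and -0.27, and neither gene was called; Tpm3 was also lost without WT day 3 library 2 (-0.22) and WT day 6 library 3 (-0.18). The fast troponin Tnnt3 stood at 105 ± 9.61 and 98.4 ± 11.2 CPM, and the slow troponin Tnni1 at 114 ± 5.23 and 137 ± 18.7 CPM, without passing. Among the light chains, Myl1, the essential light chain of fast fibres, rose from 25.8, 25.9 and 31.5 to 119.6, 77.7 and 83.4 CPM (log2FC 1.75, SE 0.16, adjusted p = 5.36e-07). Myl4, the embryonic and atrial light chain, rose as well, from 26.0, 24 and 28.7 to 64.6, 52.3 and 57.9 CPM (log2FC 1.15, SE 0.13, adjusted p = 8.91e-06), while the embryonic heavy chain Myh3 fell. Mylk2, the skeletal kinase that phosphorylates the regulatory light chain, rose from 5.40, 4.81 and 5.64 to 11.0, 10.4 and 11.9 CPM (log2FC 1.07, SE 0.13, adjusted p = 1.49e-05). Mylpf, that fast regulatory chain itself, stood at 180.2 ± 6.82 and 171 ± 12.8 CPM (log2FC -0.08, adjusted p = 0.854). In all 3 of 12 light chain genes rose and 1 fell (median log2FC -0.05), beside the same 4.87% and 4.92%. The 1 that fell was Myl6, the non-muscle essential chain (log2FC -0.32), and its call was lost without any 1 of WT day 3 library 1, 2 or 3 (-0.34, -0.31 and -0.32) or WT day 6 library 1 or 3 (-0.29 and -0.23).

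**Figure D3:**
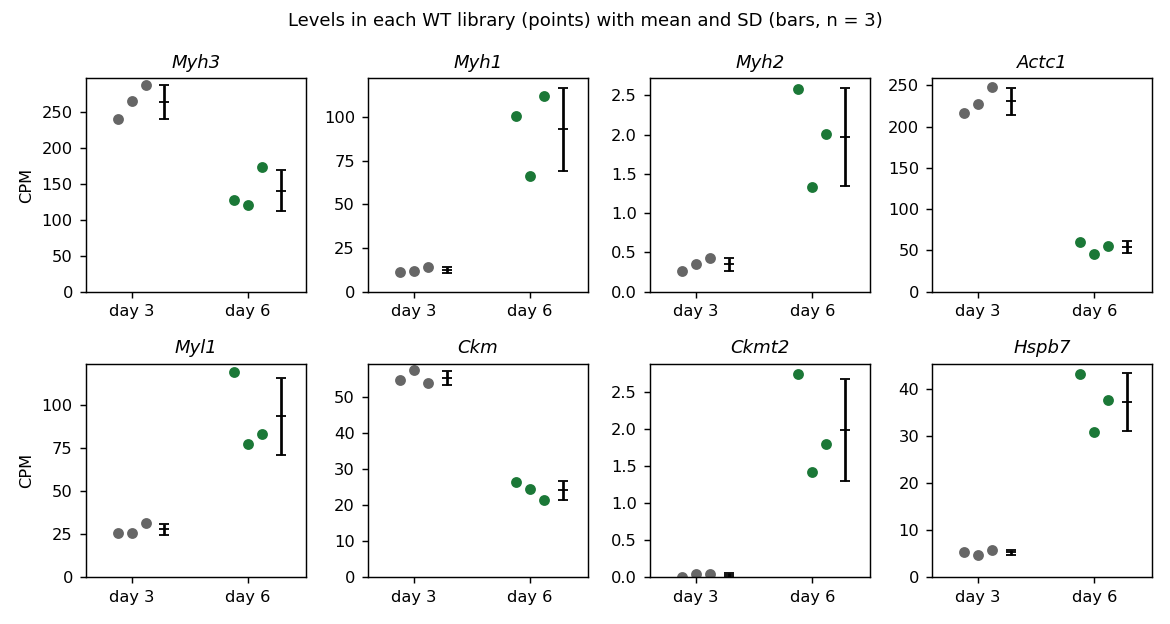
CPM of 8 muscle genes in each WT library on day 3 and day 6 (points, 3 per day), with the mean and SD beside them (bars, n = 3), on linear axes from 0. The day 6 points of Myh3, Actc1 and Ckm lie below those of day 3, and those of Myh1, Myh2, Myl1, Ckmt2 and Hspb7 above, with no overlap.

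Of 39 scaffold proteins of the Z-disc, M-band and filaments, 11 rose and 1 fell (median log2FC 0.25). Myom2, a myomesin that cross-links thick filaments in the M-band, rose from 62.8, 72.0 and 75.1 to 143, 104 and 144 CPM (log2FC 0.89, SE 0.14, adjusted p = 0.000122), and its relative Myom3 from 5.57, 9.01 and 9.20 to 21.2, 11.6 and 16.7 CPM (log2FC 1.06, SE 0.21, adjusted p = 0.00168). Mypn, myopalladin of the Z-disc, rose from 1.65, 1.39 and 2.04 to 6.06, 3.46 and 5.37 CPM (log2FC 1.55, SE 0.21, adjusted p = 8.09e-05). Smpx, a small costamere protein, went from 3 to 50 counts over the 3 libraries of each day, a ratio of 16.5 (exact 95% interval 5.34 to 82.9, counting error only). The stretch-responsive ankyrin-repeat proteins divided: Ankrd1 rose from 265, 279 and 272 to 369, 387 and 355 CPM (log2FC 0.44, SE 0.10, adjusted p = 0.00331), whereas Ankrd2 fell from 15.6, 14.2 and 17.3 to 7.09, 5.46 and 4.78 CPM (log2FC -1.44, SE 0.20, adjusted p = 6.84e-05). For each of these called genes the days did not overlap. Titin (Ttn) at 114 ± 5.24 and 87.7 ± 10.7 CPM and desmin (Des) at 1514 ± 33.2 and 1574 ± 163 CPM did not pass. The number of scaffold genes that rose was 7 without WT day 6 library 1.

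Hspb7, a small heat shock protein of striated muscle that binds filamin, had the smallest p-value of all genes. It rose from 5.31, 4.59 and 5.77 to 43.1, 30.8 and 37.7 CPM (log2FC 2.83, SE 0.17, adjusted p = 7.52e-10). Of 14 muscle chaperones 1 rose, beside 4.87% of all genes, and 2 did in DESeq2, with limma on either TPM scale, without the filter and with library size scaling alone. Cryab stood at 95.9 ± 4.34 and 103 ± 16.4 CPM and Hspb1 at 275 ± 9.13 and 254 ± 25.5 CPM, neither past the threshold. Hspa8, a constitutive chaperone of every cell, was called lower (log2FC -0.21, adjusted p = 0.0353), a call lost without WT day 3 library 1 (-0.19), WT day 3 library 2 (-0.20), WT day 6 library 1 (-0.19) or WT day 6 library 3 (-0.19).

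Several genes of the muscle calcium store rose, and others did not pass. Of 26 tested genes of excitation-contraction coupling, 8 rose and none fell, with a median log2FC of 0.22. Casq1, the fast-fibre calsequestrin that buffers calcium in the sarcoplasmic reticulum, rose from 7.40, 7.97 and 9.11 to 24.8, 20.4 and 22.9 CPM (log2FC 1.47, SE 0.16, adjusted p = 6.07e-06), while the cardiac form Casq2 stood at 102 ± 11.7 and 118 ± 16.3 CPM (log2FC 0.21, adjusted p = 0.403). Atp2a1, the fast calcium pump, rose from 70.5, 72.0 and 74.7 to 138, 105 and 130.2 CPM (log2FC 0.78, SE 0.14, adjusted p = 0.000668), and the ubiquitous pump Atp2a2 stood at 261 ± 10.8 and 269 ± 26.5 CPM (log2FC 0.05, adjusted p = 0.835). Both fast-fibre isoforms stood higher in every day 6 library than in any day 3 library. Trdn, triadin, which anchors calsequestrin at the release channel, rose from 1.61, 1.34 and 0.868 to 4.90, 4.39 and 4.49 CPM (log2FC 1.85, SE 0.31, adjusted p = 0.000324). Hrc, a calcium-binding protein of the store, rose by 0.89 and Tmem38a, a potassium channel of its membrane, by 0.56 on the log2 scale (adjusted p = 0.000907 and 0.000586).

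Cav3, the muscle caveolin of surface membrane and forming T-tubules, rose from 0.348, 0.563 and 0.304 to 3.95, 3.28 and 3.14 CPM (log2FC 3.08, SE 0.31, adjusted p = 8.62e-06). The channels at the core of the apparatus did not pass: Ryr1, the release channel, stood at 23.1, 25.9 and 28.5 CPM and then at 34.2, 29.6 and 47.5 CPM (log2FC 0.52, adjusted p = 0.0625). Cacna1s, the voltage sensor, stood at 9.93 ± 0.491 and 12.2 ± 2.85 CPM (log2FC 0.30, adjusted p = 0.435). Its beta subunit Cacnb1 was called higher (log2FC 0.50), but not without WT day 3 library 1 (0.47), WT day 3 library 2 (0.46) or WT day 6 library 1 (0.44). Mtm1, the myotubularin phosphatase, was likewise called (0.91) but not without WT day 3 library 1 (0.80) or WT day 6 library 1 (0.69).

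Among genes of the excitable surface, 4 of 15 tested rose and none fell (median log2FC 0.53, but 0.36 over genes with a mean count of at least 50 and 0.15 with limma on log2(TPM + 1)). Scn4a, the adult muscle sodium channel, rose from 2.22, 1.73 and 1.87 to 4.99, 3.37 and 4.78 CPM (log2FC 1.17, SE 0.26, adjusted p = 0.00417). Kcnn3, a calcium-activated potassium channel found in non-innervated muscle, rose from 4.79, 5.81 and 4.47 to 12.1, 9.93 and 13.4 CPM (log2FC 1.24, SE 0.18, adjusted p = 6.75e-05). The days did not overlap for either gene. Clcn1, the chloride channel of mature fibres, stood at only 0.391 ± 0.0432 and 0.534 ± 0.207 CPM and did not pass.

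At the synapse, 4 of 15 genes rose and 1 fell, and 2 rose when WT day 3 library 1, WT day 3 library 2, WT day 6 library 1 or WT day 6 library 2 was left out. Colq, the collagen tail of acetylcholinesterase, rose from 0.131, 0.0433 and 0.130 to 2.06, 0.798 and 1.09 CPM (log2FC 3.63, SE 0.52, adjusted p = 0.000174). Etv5, an Ets factor, rose from 13.9, 14.5 and 13.8 to 20.0, 18.9 and 19.5 CPM (log2FC 0.47, SE 0.10, adjusted p = 0.00376). Chrnb1, the receptor's beta subunit, fell from 117, 113 and 94.2 to 71.3, 81.1 and 76.0 CPM (log2FC -0.50, SE 0.08, adjusted p = 0.000313). The alpha and delta subunits, Chrna1 at 574 ± 34.8 and 512 ± 27.2 CPM and Chrnd at 189 ± 2.01 and 194 ± 2.79 CPM, did not pass, and the adult epsilon subunit Chrne had 0 counts on day 3 and at most 4 in a day 6 library.

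The creatine kinases split. Ckm, the cytosolic muscle creatine kinase and a standard marker of differentiation, fell from 54.6, 57.4 and 53.9 to 26.4, 24.5 and 21.3 CPM (log2FC -1.20, SE 0.19, adjusted p = 0.000206), and every day 6 library stood below every day 3 library. Ckmt2, the mitochondrial form of striated muscle, went the other way, from 2 counts over the day 3 libraries to 139 over the day 6 libraries, a ratio of 68.9 (exact 95% interval 18.7 to 574.8, counting error only; adjusted p = 8.91e-06). The brain form Ckb stood at 60.4 ± 5.42 and 61.4 ± 5.13 CPM (log2FC 0.02). In TPM, Ckm went from 78.0 ± 3.22 to 34.1 ± 2.40 and Ckb from 81.0 ± 7.58 to 83.1 ± 9.27, so that their mean ± SD overlapped on day 3 and Ckm lay below Ckb on day 6.

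Mb, myoglobin, rose from 4.40, 4.42 and 4.73 to 13.8, 7.85 and 10.2 CPM (log2FC 1.24, SE 0.22, adjusted p = 0.000979). Adssl1, the muscle enzyme that turns inosine monophosphate towards AMP, rose from 37.4, 34.5 and 47.6 to 68.2, 72.2 and 63.6 CPM (log2FC 0.77, SE 0.13, adjusted p = 0.000483), and the creatine transporter Slc6a8 from 108, 111 and 109 to 146, 138 and 138 CPM (log2FC 0.36, SE 0.08, adjusted p = 0.00505). Gatm, the first enzyme of creatine synthesis, fell from 45.4, 42.8 and 44.3 to 32.9, 31.0 and 31.6 CPM (log2FC -0.47, SE 0.08, adjusted p = 0.000308). The days did not overlap for any of these 4 genes. In all 7 of 14 genes of this list rose and 2 fell (median log2FC 0.52), and 4 rose without WT day 3 library 1, WT day 3 library 2 or WT day 6 library 1.

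In sugar metabolism 3 muscle isoforms rose. Pygm, muscle glycogen phosphorylase, rose from 10.7, 10.1 and 12 to 25.7, 22.1 and 21.1 CPM (log2FC 1.07, SE 0.13, adjusted p = 1.12e-05). Pfkm, the muscle phosphofructokinase, rose from 86.9, 83 and 91.3 to 125, 128 and 127 CPM (log2FC 0.54, SE 0.08, adjusted p = 6.03e-05), and Pgam2, the muscle phosphoglycerate mutase, from 2.70, 2.38 and 2.78 to 7.22, 5.59 and 4.61 CPM (log2FC 1.15, SE 0.18, adjusted p = 0.000215), each without overlap. Of 26 genes 4 rose and none fell, with a median log2FC of -0.03. Without passing, Gapdh stood at 9453 ± 645 and 9537 ± 1412 CPM, Pkm at 6029 ± 151 and 5547 ± 595 CPM and the muscle enolase Eno3 at 325 ± 6.12 and 284 ± 31.1 CPM. The 78 respiratory chain subunits had a median log2FC of -0.01, with Cox8b, the muscle isoform of a cytochrome oxidase subunit, called higher (log2FC 1.20). That call was lost without WT day 3 library 1 (1.12), WT day 3 library 2 (1.26), WT day 6 library 1 (1.05) or WT day 6 library 2 (1.06).

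Of 33 tested regulators of myogenesis, 2 rose and 6 fell (median log2FC -0.20), beside 4.87% higher and 4.92% lower among all genes tested. Mef2c, a factor that switches on sarcomere genes late, had 0 counts in all 3 day 3 libraries and stood at 0.516, 0.488 and 0.545 CPM on day 6, at least 3.96-fold higher than the floor of 3 counts per library (adjusted p = 0.000556). Myf5 fell from 41.9, 43.8 and 43.2 to 34.0, 30.7 and 36.6 CPM (log2FC -0.35, SE 0.07, adjusted p = 0.00270) and Six4, a homeobox factor of the myogenic lineage, from 46.9, 47.5 and 47.4 to 36.3, 29.4 and 39.6 CPM (log2FC -0.43, SE 0.09, adjusted p = 0.00265), though Six4 did not pass with limma on log2(TPM + 1) or log2(TPM + 0.1). The other that rose was Mef2b (log2FC 1.54), which was not called without any 1 of WT day 3 libraries 1, 2 and 3 (1.69, 1.35 and 1.60) or WT day 6 library 1 (1.13). Pax7 was called lower (53.9, 49.7 and 53.9 CPM, then 38.5, 36.2 and 45.0 CPM, log2FC -0.40), but not without WT day 3 library 1 (-0.38), WT day 3 library 3 (-0.38), WT day 6 library 1 (-0.37) or WT day 6 library 2 (-0.32). Myod1 stood at 237, 221 and 208 CPM and then at 165, 196 and 188 CPM (log2FC -0.28, adjusted p = 0.267). The number that rose was 1 without WT day 3 library 2 or 3 or WT day 6 library 1. The number that fell was 2 to 4 without any 1 of WT day 3 library 1, 2 or 3 or WT day 6 library 1 or 2, and 14 without KO day 1 library 2.

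Runx1, the gene targeted in the KO cells, did not pass in the control step. It stood at 153, 148 and 145 CPM on day 3 and at 146, 148 and 165 CPM on day 6, overlapping groups with a log2FC of 0.04 (SE 0.08, adjusted p = 0.849). Its relatives Runx2 and Runx3 and its partner Cbfb stood at 57.9 and 55.7, 73.5 and 66.3, and 86.7 and 89.6 CPM.

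Among proteins of cell contact, fusion and repair, Cdh15, the M-cadherin of myoblasts, fell from 276, 269 and 228 to 132, 170.5 and 172 CPM (log2FC -0.71, SE 0.11, adjusted p = 0.000154), and Cdh2, N-cadherin, from 193, 202 and 194 to 157, 147 and 171 CPM (log2FC -0.31, SE 0.07, adjusted p = 0.00269). Trim72, which patches torn muscle membrane, rose from 12.1, 13.9 and 12.5 to 29.1, 22.6 and 25.6 CPM (log2FC 1.01, SE 0.16, adjusted p = 0.000326). All 3 genes separated the days completely. The fusion partner of Mymk, Mymx, stood at 14.4 ± 0.819 and 17.7 ± 5.45 CPM and did not pass, and 3 of 21 genes of the list rose and 4 fell (median log2FC -0.02). In the dystrophin complex 1 of 15 genes passed, beside 9.79% of all genes tested. This was Lama2, the laminin chain of the muscle basement membrane, which rose from 7.97, 7.93 and 10.3 to 13.2, 14.1 and 16.3 CPM (log2FC 0.73, SE 0.15, adjusted p = 0.00247).

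Cell cycle genes fell together. Of 30, 27 fell and none rose, and the median log2FC was -0.61 beside -0.01 for all genes. The number that fell was 23 without WT day 3 library 2 or WT day 6 library 2. Their summed level was 2263, 2424 and 2056 CPM on day 3 and 1394, 1511 and 1602 CPM on day 6, without overlap. Ccna2, the cyclin of S phase and mitotic entry, fell from 135, 143 and 110.3 to 60.6, 68.8 and 70.4 CPM (log2FC -0.96, SE 0.09, adjusted p = 5.36e-07). Cdk1, the mitotic kinase whose promoter is printed above, fell from 73.3, 74.4 and 67.8 to 39.9, 50.8 and 42.6 CPM (log2FC -0.69, SE 0.10, adjusted p = 4.81e-05), and Cdc20, the activator of the anaphase ubiquitin ligase, from 59.9, 52.9 and 44.3 to 26.9, 32.1 and 31.2 CPM (log2FC -0.80, SE 0.10, adjusted p = 1.68e-05). Mki67, the proliferation marker, fell from 134, 156 and 118 to 71.6, 69.4 and 96.2 CPM (log2FC -0.78, SE 0.14, adjusted p = 0.000576), and day 6 library 3 stood nearest to day 3.

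By phase, the log2FC was -0.93 for Kif11, a spindle motor, -0.89 for Aurkb and -0.83 for Plk1, both mitotic kinases, and -0.76 for Top2a, the topoisomerase that untangles chromosomes. It was -0.45 for Mcm2, -0.40 for Mcm3 and -0.57 for Mcm5, subunits of the replicative helicase. The genes that did not pass were Ccne1 (19.8 and 16.5 CPM), Cdt1 (30.2 and 27.2 CPM) and E2f1 (58.9 and 63.0 CPM), all of the G1 to S transition. Others of that transition were called lower, Ccne2 (log2FC -0.59, but not without WT day 6 library 1) and Cdc6 (-0.44). The helicase and mitotic genes given above passed. Among other helicase subunits, Mcm6 was not called without WT day 3 library 1 (-0.29) or 2 (-0.28) or WT day 6 library 1 (-0.25) or 2 (-0.27). Mcm7 was not called without WT day 3 library 2 (-0.31) or WT day 6 library 1 (-0.30), nor Mcm4 without WT day 6 library 2 (-0.33). The difference between the phases was not tested.

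Cell cycle mRNA was still present on day 6. Top2a stood at 504 CPM on average on WT day 0, 206 on day 1, 273 on day 3 and 161 on day 6, and Ccna2 at 346, 116, 129 and 66.6 CPM. Among the regulators of cycle exit, Rbl1, the pocket protein p107, fell from 41.0, 46.0 and 36.4 to 25.8, 23.3 and 28.9 CPM (log2FC -0.66, SE 0.10, adjusted p = 0.000153), and the D-type cyclin Ccnd2 rose from 76.6 ± 1.74 to 109 ± 13.8 CPM (log2FC 0.51, SE 0.08, adjusted p = 0.000154). Cdkn1a, the Cdk inhibitor p21 that holds myotubes out of the cycle, stood at 497 ± 4.73 and 559.6 ± 68.0 CPM (log2FC 0.17, adjusted p = 0.441).

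Cholesterol synthesis genes fell together by modest amounts. Of 24, 21 fell and none rose (median log2FC -0.49), and the summed level went from 3429.8, 3497 and 3419 CPM on day 3 to 2321, 2583 and 2596 CPM on day 6. The number that fell was 15 without WT day 6 library 1 and 18 without any 1 of the WT day 3 libraries. Hmgcs1, the synthase at the entry of the pathway, fell from 247, 259.9 and 251 to 153, 168 and 186 CPM (log2FC -0.58, SE 0.10, adjusted p = 0.000386). No day 6 library reached the day 3 range for this gene. Further down the pathway, Fdps, which makes farnesyl diphosphate, fell by 0.65, Sqle, the squalene epoxidase, by 0.35 and Cyp51, the lanosterol demethylase, by 0.59 on the log2 scale. Insig1, the sterol-dependent brake of the pathway and itself one of its targets, fell from 79.8, 85.5 and 83.1 to 53.3, 55.5 and 57.7 CPM (log2FC -0.58, SE 0.08, adjusted p = 3.49e-05).

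Srebf2 was called lower (log2FC -0.39), but not without WT day 3 library 1 (-0.37), WT day 3 library 2 (-0.37) or WT day 6 library 1 (-0.32). Fatty acid genes beside it were less uniform: Scd2, a desaturase, fell from 1887, 1866 and 1814 to 1371, 1271 and 1568 CPM (log2FC -0.40, SE 0.09, adjusted p = 0.00570), whereas Fasn stood at 469 ± 15.5 and 366 ± 58.5 CPM (log2FC -0.36, adjusted p = 0.0592). Fabp3, the fatty acid carrier of oxidative muscle, rose from 0.131, 0.303 and 0.434 to 2.06, 1.55 and 1.47 CPM (log2FC 2.53, SE 0.40, adjusted p = 0.000210), and Acacb, the acetyl-CoA carboxylase that controls mitochondrial fat uptake, from 1.44, 1.13 and 1.13 to 3.74, 2.57 and 3.23 CPM (log2FC 1.37, SE 0.26, adjusted p = 0.00111). Cd36, the fatty acid translocase, had 1 count over the day 3 libraries and 17 over the day 6 libraries (ratio 16.9, exact 95% interval 2.64 to 704.6, counting error only). It was called, though not without WT day 3 library 1 (log2FC 3.20), WT day 3 library 2 (3.19) or WT day 6 library 1 (3.47), nor with limma on log2(TPM + 1).

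**Figure D4:**
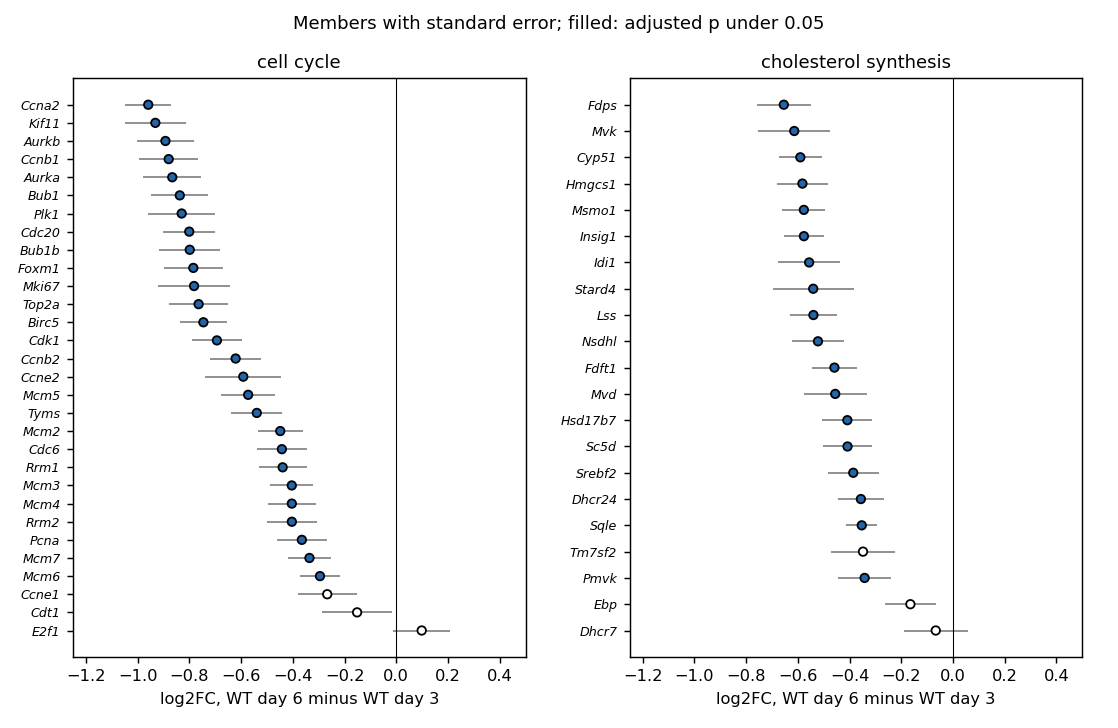
Log2FC of WT day 6 minus WT day 3 with its standard error for the 30 cell cycle genes (left) and 21 of the 24 cholesterol synthesis genes (right), filled where the adjusted p was under 0.05. All members shown but E2f1 lie left of 0, and 27 and 18 of them are filled.

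Several lysosomal enzymes rose by less than 1 on the log2 scale. Of 26 tested lysosome and autophagy genes 11 rose and none fell (median log2FC 0.27), with summed levels of 5411, 5228 and 5419 CPM on day 3 and 6702, 6720.3 and 6193 CPM on day 6. Ctsl, cathepsin L, a lysosomal protease, rose from 313, 299 and 325 to 489, 482 and 434 CPM (log2FC 0.59, SE 0.08, adjusted p = 2.44e-05), and Ctsb, cathepsin B, from 571, 575 and 604 to 799, 788 and 680.1 CPM (log2FC 0.37, SE 0.07, adjusted p = 0.00172). Psap, prosaposin, the precursor of lipid-degrading cofactors, rose from 1214, 1136 and 1180.4 to 1517, 1496 and 1414 CPM (log2FC 0.33, SE 0.07, adjusted p = 0.00256). These 3 genes stood higher in every day 6 library, with library 3 the lowest of the day. Lamp1 and Lamp2, the membrane proteins of the lysosome, stood at 549 ± 24.9 and 602 ± 32.5 CPM and at 256 ± 7.98 and 292 ± 18.4 CPM and did not pass. The number that rose was 7 without WT day 3 library 1 or 3, 5 without WT day 3 library 2 or WT day 6 library 1, and 17 without KO day 1 library 2.

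Trim63, the muscle ubiquitin ligase MuRF1, rose from 1.79, 1.99 and 2.30 to 6.10, 4.17 and 5.24 CPM (log2FC 1.35, SE 0.23, adjusted p = 0.000372). Mt2, a metallothionein that binds zinc and copper, rose from 228, 211 and 278 to 567, 540.2 and 373 CPM (log2FC 1.05, SE 0.18, adjusted p = 0.000477), and in TPM from 1157 ± 173 to 2405 ± 352. Its neighbour Mt1 was called (log2FC 0.80), but not without WT day 3 library 1 (0.77), WT day 3 library 2 (0.72) or WT day 6 library 1 (0.70), and day 6 library 3 stood below the others for both genes. In all 7 of 18 atrophy and Foxo genes rose and none fell (median log2FC 0.18), and 2 rose when any 1 of those 3 libraries was left out.

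Some matrix genes changed and others did not pass. Fn1, fibronectin, the most abundant gene by counts in all 6 libraries, rose from 13929, 13722 and 14212 to 18738, 17980.1 and 21844 CPM (log2FC 0.48, SE 0.12, adjusted p = 0.00924). Thbs1, thrombospondin 1, rose from 1463, 1571 and 1467 to 1996, 2083 and 2666 CPM (log2FC 0.58, SE 0.12, adjusted p = 0.00172), and Mmp2, a gelatin-degrading protease, from 865, 774 and 834 to 1053, 1157 and 1085 CPM (log2FC 0.41, SE 0.07, adjusted p = 0.000577). Col1a2, a chain of type I collagen, fell from 1193, 1322 and 1236 to 822, 977 and 969 CPM (log2FC -0.44, SE 0.08, adjusted p = 0.000477), while its partner chain Col1a1 stood at 5435, 5781 and 5106 CPM and then at 5451, 7581 and 6194 CPM (log2FC 0.24, adjusted p = 0.467), with the days overlapping for Col1a1 only. Ctgf, a matricellular growth factor also known as Ccn2, rose from 52.8, 50.2 and 42.9 to 110.1, 106 and 114 CPM (log2FC 1.18, SE 0.15, adjusted p = 1.49e-05). Of 26 matrix proteins other than collagens 6 rose and 1 fell, the latter Loxl2, a collagen cross-linker (log2FC -0.27), a call lost without WT day 3 library 1 (-0.28), WT day 3 library 2 (-0.25) or WT day 6 library 1 (-0.20). Of 18 collagens 1 rose, Col8a1 (log2FC 0.37, and 0.27 without WT day 6 library 3, where it was not called), and 2 fell, beside 4.87% higher and 4.92% lower among all genes. Apart from Col1a2 the one that fell was Col18a1 (log2FC -0.32), which was not called without WT day 3 library 1 (-0.30), WT day 3 library 2 (-0.32) or WT day 6 library 1 (-0.24). Spp1, osteopontin, a secreted matrix protein, rose from 626, 612 and 603 to 998, 950.4 and 883 CPM (log2FC 0.62, SE 0.09, adjusted p = 7.26e-05).

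Among signalling genes, Grem1, an antagonist of bone morphogenetic proteins, rose from 56.3, 56.0 and 57.6 to 127, 78.1 and 118 CPM (log2FC 0.93, SE 0.15, adjusted p = 0.000315), and Inhba, the activin A subunit, from 19.9, 18.9 and 19.4 to 29.1, 25.5 and 33.9 CPM (log2FC 0.60, SE 0.14, adjusted p = 0.00677), a call that did not pass with limma on log2(TPM + 0.1). Smad3, the transducer of Tgf-beta and activin signals, fell from 133, 139 and 134 to 95.4, 99.9 and 115 CPM (log2FC -0.39, SE 0.07, adjusted p = 0.00103). The Notch ligands moved apart, with Jag1 rising from 7.71, 8.93 and 6.81 to 13.0, 10.6 and 12.6 CPM (log2FC 0.63, SE 0.14, adjusted p = 0.00593) and Jag2 falling from 84.9, 87.0 and 89.6 to 59.6, 62.4 and 69.2 CPM (log2FC -0.45, SE 0.09, adjusted p = 0.00163). Another ligand, Dll1, was called lower (log2FC -0.59), but not without WT day 3 library 1 (-0.51) or WT day 6 library 1 (-0.46). Egr1 and Egr2, immediate early factors, rose by 0.44 and 0.72 on the log2 scale (adjusted p = 0.00111 and 0.00181), while Fos stood at 8.57 ± 0.480 and 9.63 ± 1.34 CPM and Jun at 210.2 ± 1.32 and 186 ± 7.84 CPM without passing. Of 28 Tgf-beta and Bmp genes 5 rose and 1 fell, with 2 rising without WT day 3 library 1 or 2 or WT day 6 library 1 or 3 and 3 without WT day 3 library 3.

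Several genes at the extremes lie outside these lists. Among those with at least 5 CPM on 1 of the days, Prl2c3 and Prl2c2, proliferins of the prolactin family, rose by 2.69 and 2.23 on the log2 scale. Prl2c3 went from 2.35, 4.16 and 3.25 to 33.6, 18.3 and 11.4 CPM, so the day 6 libraries spread widely, and these genes share near-identical copies between which estimated counts are uncertain. Prg4, lubricin, rose from 1.04, 0.780 and 1.74 to 11.6, 3.90 and 4.74 CPM (log2FC 2.50, SE 0.40, adjusted p = 0.000226), with day 6 library 1 far above the others and a log2FC of 1.86 without it. Pgm5, a phosphoglucomutase relative of muscle adhesion sites, rose from 6.66, 5.94 and 9.76 to 31.7, 21.3 and 28.5 CPM (log2FC 1.87, SE 0.17, adjusted p = 1.17e-06), and Cck, the cholecystokinin hormone precursor, from 5.18, 4.77 and 6.72 to 22.9, 18.7 and 13.4 CPM (log2FC 1.72, SE 0.22, adjusted p = 1.57e-05). Groups that did not overlap were a condition for choosing these genes, so their separation is not a result. Cacna1g, a T-type calcium channel, rose by 1.37, Car6, a secreted carbonic anhydrase, by 1.67, and Fam110c by 1.35.

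On the falling side, Car3, the carbonic anhydrase abundant in slow muscle, fell from 27.0, 26.1 and 28.1 to 5.59, 15.9 and 11.0 CPM (log2FC -1.32, SE 0.19, adjusted p = 8.17e-05). Ptprn, a protein of dense-core secretory vesicles, fell from 10.1, 11.1 and 8.59 to 4.51, 3.55 and 3.56 CPM (log2FC -1.35, SE 0.19, adjusted p = 6.84e-05), and Ifitm1, an interferon-induced membrane protein, from 16.0, 15.4 and 14.4 to 6.75, 7.27 and 6.63 CPM (log2FC -1.15, SE 0.16, adjusted p = 3.81e-05). Itga10, a collagen-binding integrin, fell by 1.13 and Polq, a DNA repair polymerase, by 1.14 on the log2 scale. Pclaf, a partner of the replication clamp Pcna, fell from 39.4, 45.3 and 34.5 to 17.4, 20.2 and 20.5 CPM (log2FC -1.03, SE 0.11, adjusted p = 2.80e-06), and the histone gene Hist1h2ap, which has near-identical copies, by 1.29. Krt14 (log2FC -1.20) and Fmod (-1.05) were not called without WT day 3 library 1 (-1.04 and -0.82), WT day 3 library 2 (-1.03 and -1.04) or WT day 6 library 1 (-1.01 and -1.12), nor Fmod without WT day 6 library 3 (-0.91). The genes of highest mean TPM on day 6 were Gapdh, the translation factor Eef1a1 and DQ539915, and none of the 3 passed (log2FC 0.01, 0.16 and -0.19, in that order).

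Cytosolic ribosomal protein genes turned on a single library. None of 79 passed in edgeR's test, 23 had an unadjusted p under 0.05, and their median log2FC was 0.18. Their summed level was 50716, 50808 and 53612 CPM on day 3 and 60511, 63658 and 47105 CPM on day 6, where library 3 stood below all day 3 libraries and libraries 1 and 2 above them. Without WT day 6 library 3, 40 of the 79 were called higher. DESeq2 on all libraries called 3, and limma on log2(TPM + 1) called 7.

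Defining markers of several other cell types were at 0. Of 11 adipocyte markers 6 had 0 counts in all 6 libraries, among them Adipoq and Plin1, and of 19 macrophage and endothelial markers 8 did, among them Adgre1, Tyrobp and Kdr. Sums in this paragraph are over the tested members of each list only. Summed macrophage and endothelial markers lay at 15.2 to 18.3 CPM on day 3 and 19.6 to 23.9 on day 6, most of it Cd14, and adipocyte markers at 84.1 to 89.4 and 89.8 to 110.9 CPM. Cd68, a lysosomal membrane protein of macrophages, rose from 0.784, 1.30 and 1.26 to 4.77, 2.71 and 2.47 CPM (log2FC 1.57, SE 0.30, adjusted p = 0.00135) while Adgre1 and Tyrobp stayed at 0. Vwf, an endothelial clotting factor gene, was called higher (0.305, 0.607 and 0.260 then 1.03, 0.665 and 1.72 CPM, log2FC 1.53), but not without WT day 3 library 1 (1.39), WT day 3 library 3 (1.31), WT day 6 library 1 (1.60) or WT day 6 library 3 (1.11). Of 19 osteoblast and chondrocyte markers 5 were at 0, among them Alpl and Sost, and their sum lay at 749 to 778 CPM on day 3 and 1026 to 1139 CPM on day 6, nearly all of it Spp1 and Sox9. Of 13 smooth muscle and pericyte markers none was at 0 in all libraries, Myh11 had at most 5 counts, and the sum lay at 5489 to 5769.9 and 4911 to 5742 CPM. Neural and Schwann markers, of which Sox10 and Snap25 were at 0, summed to 77.0 to 98.4 CPM on day 3 and 57.3 to 60.9 CPM on day 6. Most of that was Tubb3, a tubulin of neurons, which fell from 83.4, 72.7 and 58.3 to 40.3, 43.4 and 41.9 CPM (log2FC -0.77, SE 0.12, adjusted p = 0.000110). Mbp, the myelin basic protein gene, rose from 0.958, 0.823 and 1.08 to 1.63, 2.88 and 2.26 CPM (log2FC 1.24, SE 0.27, adjusted p = 0.00364). In the other marker lists Cebpa, an adipogenic factor (log2FC 0.59), Synm, an intermediate filament gene (0.76), and Bglap2, an osteocalcin gene at 0, 0 and 0.217 then 1.25, 0.310 and 0.335 CPM, were called higher, but none of these 3 without WT day 3 library 2. Synm was also lost without WT day 3 library 3 (0.51), WT day 6 library 1 (0.82) or WT day 6 library 2 (0.65). Bglap2 was also lost without WT day 3 library 1 (2.48) or WT day 6 library 1 (2.08), and stood at 6.85 without WT day 3 library 3. Cebpa was also lost without WT day 6 library 2 (0.50). Lmod1, a leiomodin of smooth muscle (log2FC 0.72), kept its call without WT day 3 library 2 (0.90) and lost it without any other 1 of the 6, with values of 0.53 to 0.83. The part of such cells in the other results was not tested.

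The day 1 to day 3 step, which shares its day 3 libraries with the step described here, is set beside it by values only. In that step 2797 genes passed (19.7% of those tested), 1566 higher on day 3 (11% of those tested) and 1231 lower (8.68%). For several genes that fell after day 3 the level had been lower before it. Actc1 stood at 0.0683, 3.29, 231 and 53.9 CPM on average on WT days 0, 1, 3 and 6, Myh3 at 0.0440, 2.94, 265 and 141 CPM, and Ckm at 0.0463, 0.851, 55.3 and 24.1 CPM. By contrast Casq1 stood at 0.157, 0.241, 8.16 and 22.7 CPM and Myh1 at 0.0440, 0.199, 12.3 and 92.9 CPM, higher at each later time. Hmgcs1 stood at 197, 265, 253 and 169 CPM, and cholesterol synthesis had 1 member higher and 2 lower in the earlier step. Spp1 was lowest on day 3, at 1527, 1507, 614 and 944 CPM.

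The same interval in the libraries labelled KO shares no library with the control step, and the difference between the steps was tested as an interaction in the same fit. Runx1 mRNA was not lower under that label: it stood at 217 ± 27.9 CPM in KO day 3 and 311 ± 11.8 CPM in KO day 6, above both WT groups. Counts per gene cannot show whether the gene was disrupted in these cells, and this was not tested. In the libraries labelled KO 5865 genes passed (41.3% of those tested), 2862 higher (20.2%) and 3003 lower (21.2%). The steps differed for 1753 genes (12.4%), of which 903 had the more positive log2FC in the libraries labelled KO (6.36%) and 850 the more negative (5.99%). Leaving out KO day 1 library 2 gave 2864 such genes, and leaving out KO day 3 library 3 gave 1124.

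For 3 muscle genes that fell in the control step, the step in the libraries labelled KO was the more positive. Actc1 stood at 1493, 649.7 and 693 CPM in KO day 3 and 873, 1008 and 1039 CPM in KO day 6 (interaction log2FC 2.14, SE 0.33, adjusted p = 0.000172). The KO step itself did not pass for Actc1 (log2FC 0.04, adjusted p = 0.905), and KO day 3 library 1 stood well above the others. Ckm went from 338, 167 and 200.3 to 385, 424 and 454 CPM (interaction 2.04, adjusted p = 3.83e-05) and Ankrd2 from 27.6, 16.9 and 18.0 to 28.5, 44.0 and 43.9 CPM (interaction 2.34, adjusted p = 2.44e-05), and both had the higher mean on KO day 6. Myh1 rose by less in the libraries labelled KO, from 62.2, 62.2 and 71.3 to 147, 199 and 194 CPM (interaction -1.45, SE 0.25, adjusted p = 0.000555), from a higher start. For Hspb7 (interaction -0.02, SE 0.22, adjusted p = 0.973) and Myl1 (0.07, SE 0.22, adjusted p = 0.888) the difference between the steps did not pass.

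**Figure D5:**
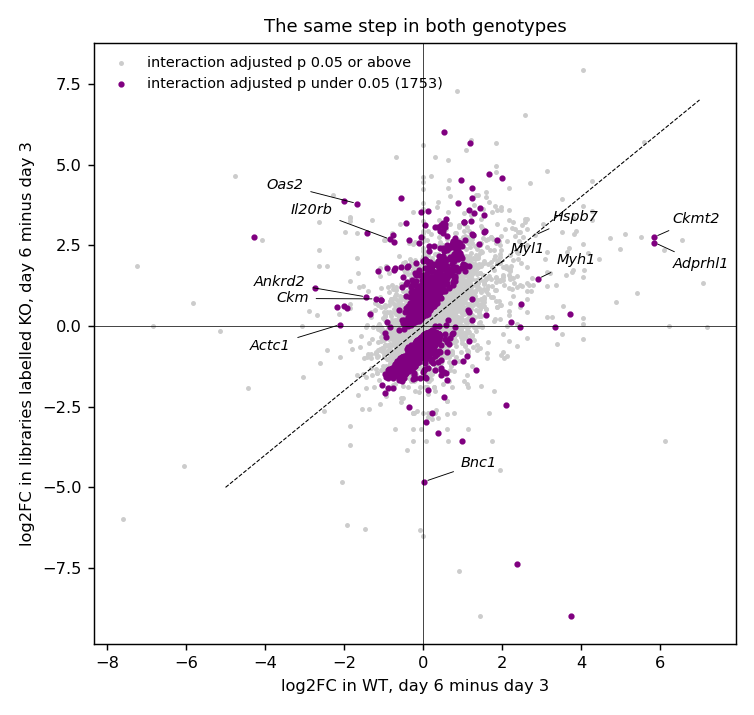
Log2FC of day 6 minus day 3 in WT (horizontal axis) and in the libraries labelled KO (vertical axis) for all 14187 tested genes, with the 1753 genes whose steps differed in purple and a dashed line of equal change. Actc1, Ckm and Ankrd2 sit left of 0 and above the line, and Myh1 sits below it.

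Among cholesterol synthesis genes, 20 of 24 fell in the libraries labelled KO as well (beside 21.2% of all genes), and 0 of 24 had a called interaction in edgeR's test (beside 12.4% of all genes). By unadjusted p under 0.05 there were 3, and DESeq2 called 3, so this does not show that the steps were alike. The interaction was -0.07 (SE 0.14) for Hmgcs1. The cell cycle list fell in all 30 members there, and 25 of 30 had a called interaction with the more negative step in KO, beside 5.99% of all genes. In Mcm3, for instance, the interaction was -0.83 (SE 0.12, adjusted p = 9.31e-05), in Cdk1 -0.70 (SE 0.13, adjusted p = 0.00122), and in Top2a, which did not pass, -0.45 (adjusted p = 0.0689). Of 39 scaffold genes 19 had a called interaction with the more positive step in the libraries labelled KO, beside 6.36% of all genes, Mypn among them (interaction 1.37, adjusted p = 0.00312), as did 18 of 22 amino acid and endoplasmic reticulum stress genes and 23 of 36 interferon response genes. In the control step the 22 stress genes had 1 member higher (beside 4.87% of all genes), Ddit3 (log2FC 0.59, but 0.55 without WT day 3 library 2 and 0.38 without WT day 6 library 1, where it was not called), and 1 lower, the cystine carrier Slc7a11 (-0.61). The 36 interferon genes had 3 members higher and 1 lower in that step, beside 4.87% and 4.92% of all genes. Dhx58 led those higher at a log2FC of 0.99, a call lost without WT day 3 library 2 (0.90), WT day 3 library 3 (0.70), WT day 6 library 1 (1.01) or WT day 6 library 2 (0.86). Irf1 was the lower one (-0.29, and -0.22 without WT day 6 library 1, where it was not called). The list had 1, 1, 0 and 6 members higher without WT day 3 library 1, WT day 3 library 2, WT day 6 library 1 and WT day 6 library 3. Of the lysosome list 20 of 26 rose in the libraries labelled KO, beside 20.2% of all genes, and 4 had a called interaction, all with the more positive step in KO, beside 6.36% of all genes. By unadjusted p under 0.05 there were 9, and DESeq2 called 6.

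The most extreme differences between the steps lay in genes that averaged under 1 CPM in 1 of the genotypes on at least 1 of the days. Where their counts were near 0, the fitted value depends on the prior count. Oas2, an antiviral enzyme, stood at 0.0871, 0.0867 and 0 then 0, 0.0444 and 0 CPM in WT, and went from 4.17 to 57.8 CPM on average in the libraries labelled KO. Its relative Oas1a averaged 0.130 and 0.145 CPM in WT and 4.27 and 50.7 CPM in KO (interaction 3.43, and 1.96 without WT day 3 library 1, where it was not called). Il20rb, a cytokine receptor subunit, and H2-T24, a non-classical histocompatibility gene, stood at 0.362 and 0.202 CPM and at 0.767 and 0.457 CPM in WT, against 1.38 and 8.88 CPM and 3.41 and 20.8 CPM in KO. Bnc1, a zinc finger factor, and Scara3, a scavenger receptor relative, were steady in WT, at 11.8, 12.8 and 12.2 then 12.2, 12.2 and 13.3 CPM and at 13.6, 15.1 and 12.6 then 14.8, 17.3 and 16.4 CPM, and near 0 in KO (0.149 and 0, 0.314 and 0.0441 CPM). Adprhl1, a cardiac and muscle pseudoenzyme, had 2 counts in WT day 3 and 139 in WT day 6, the same sums as Ckmt2, and both went from higher starts in KO, 3.99 to 23.9 and 1.57 to 10.7 CPM. Their interaction changed sign between counts and log2(TPM + 1): -3.28 and 0.47 for Adprhl1, -3.10 and 0.47 for Ckmt2.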

How the data were processed

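Reads were aligned and quantified by the authors with Bowtie2 and RSEM on mm10, per the submitters' processing notes; versions, the annotation and the strand setting are not given in the sources used here. The deposited tables hold RSEM expected counts and TPM (length-corrected levels, as the authors deposited them) for 32793 genes, of which 12326 were 0 in all libraries.

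Expected counts were rounded to whole numbers. Genes were kept by edgeR's filterByExpr (minimum count 10, minimum total 15) and scaled by TMM. A quasi-likelihood model of 8 group means over all 23 libraries was fitted with edgeR 4.0.16 in R 4.3.3, with Benjamini-Hochberg adjustment across the 14187 tested genes (threshold 0.05, two-sided). SE is the absolute log2FC divided by the square root of F. TPM was used for levels between genes and, with limma 3.58.1, in alternatives; DESeq2 1.42.0 was another.

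Genes named were the 12 most positive and 12 most negative called log2FC with non-overlapping groups and at least 5 CPM in the higher group, the members of the 40 lists (for each list described, the most positive and most negative that passed), Runx1, the 4 most positive and 4 most negative interactions, and the 3 genes of highest TPM on day 6. Genes with a model or clone name were left out of the extremes and the interactions, but not of the genes of highest TPM. Members and lists were chosen with earlier results of these data known. Of 923 list genes 918 matched by symbol and 3 by a synonym.

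On simulated counts for this step (14187 genes, 200 of them changed) the test recovered 81% of the 1.5-fold and 91% of the 2-fold changes, and 4.44% of its calls were false. Changes were placed only in genes above a minimum mean count, and each gene had the same dispersion in all groups. The larger spread of the day 6 libraries and their deviations with transcript length were not simulated. These rates may therefore be better than those in the data. Depth was even between libraries, so the smallest level that 3 counts allow differed little between them; intervals on counts cover counting error only. An exact permutation test of 3 against 3 libraries cannot give a p below 0.1, so single values were tested only in the fit across all genes. The share of all genes whose groups did not overlap is not given here. Statements that groups did not overlap therefore describe the named genes only.

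A few list members were counted in the totals but are not reported here by name.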

Additional observations from a re-analysis of the deposited data

Results flagged for a closer look

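The day 3 to day 6 step differed between the control libraries and those labelled KO, by the interaction test in edgeR's fit, for 1753 genes. Of the genes named here, those with a called interaction log2FC of at least 1.5 in size were Oas2 (5.47), Il20rb (3.51), Oas1a (3.43), H2-T24 (3.34), Car6 (3.02), Ankrd2 (2.34), Actc1 (2.14), Ckm (2.04), Fmod (1.86), Acta1 (1.76), Ptprn (1.72) and Mb (1.62), all with the more positive step in the libraries labelled KO, and Bnc1 (-4.85), Adprhl1 (-3.28), Ckmt2 (-3.10), Scara3 (-2.93), Prl2c2 (-2.11) and Myh2 (-1.80), with the more negative step there. Smaller ones were Myh1 (-1.45) and Runx1 (0.48), among others.

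The adjusted p was 0.0459 for Oas2 and 0.0427 for Bnc1. The Oas2 call was lost on leaving out any 1 of the 6 WT libraries except WT day 3 library 3, or KO day 3 library 3, KO day 6 library 2 or KO day 6 library 3, with values of 5.01 to 7.37 over all libraries left out. The Bnc1 call was lost on leaving out any 1 of the WT or KO day 6 libraries, any WT day 3 library or KO day 3 library 2. Over all libraries left out its values ran from -5.42 to -2.39. The Ckmt2 call was lost without WT day 3 library 1 (-2.60), as was that of Oas1a, and the calls of Scara3 and Myh2 were lost on log2(TPM + 1). Bnc1 was lost there too (-0.11) and on log2(TPM + 0.1) (-0.55). With the replicate block the values were 5.51 for Oas2 and -4.85 for Bnc1, with only the compared groups in the fit 5.48 and -4.85, and neither gene was called in these fits. Scara3 stood at -6.09 without KO day 6 library 1, Oas2 at 7.37 without WT day 6 library 2, Bnc1 at -2.39 without KO day 3 library 2 and Fmod at 2.46 without KO day 3 library 1. The Prl2c2 call (adjusted p = 0.0474) was lost with RLE scaling, with the replicate block, without KO day 1 library 2 and without any 1 of WT day 3 libraries 1 and 2 or the 6 KO day 3 and day 6 libraries, with values of -2.36 to -1.54 over all libraries left out.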

How the results depend on the processing

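Of 214 genes of the lists or named that were called in the control step, 124 kept their call in all alternatives but the stricter thresholds, 35 lost it only when a library was left out, 55 lost it in another alternative, and none changed direction. The 1389 calls (691 higher, 698 lower) became 698 (332 and 366) at an adjusted p under 0.01 and 233 (207 and 26) with a log2FC of at least 1. They became 2306 (1039 and 1267) without KO day 1 library 2. Leaving out 1 library of the step gave 756 to 1587 calls, 364 to 762 higher and 381 to 825 lower. The range over scaling, filter and tool was 1084 (limma on log2(TPM + 0.1)) to 1643 (DESeq2), and 2050 with WT groups alone in the fit.

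The 1753 differences between the steps (903 and 850) became 776 (432 and 344) at 0.01, 370 (287 and 83) with a log2FC of at least 1, and 2864 (1395 and 1469) without KO day 1 library 2. Leaving out a library gave 1124 to 1892, 613 to 983 of them more positive and 511 to 909 more negative. The share that was more positive was 51.5% in the fit reported, 61.8% with RLE size factors, 63.0% over genes averaging at least 50 counts and 61.5% in DESeq2. The share of step calls that were higher was 49.7%, and 45.1% to 58.0% over the alternatives other than the threshold on log2FC, where it was 88.8%. On log2(TPM + 1) the interaction changed sign for Adprhl1 (0.47) and Ckmt2 (0.47). The cause of these changes was not tested.

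Replicate numbers did not pair the samples: deviations of same-numbered day 3 and day 6 libraries correlated at -0.004, -0.051 and -0.057. With a replicate block 1279 genes were called in the step and 1644 in the difference of the steps.

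Depth limits genes near 3 counts per library, 0.126 to 0.133 CPM: Myh4, Smpx, Ckmt2, Adprhl1 and Mef2c rest on 3 or fewer counts over the day 3 libraries, and fitted fold changes there depend on the prior count. With 3 libraries a day, the test recovered 81% of simulated 1.5-fold changes, placed in genes above a minimum mean count and without the larger day 6 spread. Smaller changes, and those in weakly expressed genes, can be missed.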
